A study of Rattus norvegicus with 18 samples.

Results

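The sarcomere is the contractile unit of striated muscle, and 40 genes that encode its filaments, its Z-disc, its M-band and the proteins that build it were followed here. They were chosen as a fixed list of gene symbols, matched to the rows of the 3 tables of changed genes that the authors deposited. Of the 40 genes, 27 appeared in at least 1 table and 13 in none. ZSF1 obese hearts differed from ZSF1 lean hearts in a table of 5700 genes and from WKY hearts in one of 5709, and the table of ZSF1 lean against WKY hearts holds 233.

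Polyadenylated RNA came from the left ventricle of 18 male rats, 6 in each group. WKY (Wistar Kyoto) rats served as the wild-type control, ZSF1 lean rats as the hypertensive group, and ZSF1 obese rats as the group with hypertension and metabolic syndrome, used to study HFpEF, heart failure in which the ejection fraction is preserved. ZSF1 rats are a hybrid line, and as background, the obese animals carry a defective leptin receptor allele from each parental strain, while lean littermates keep a working copy. WKY is a separate strain, so in each comparison with WKY the strain differs along with the disease, and the 2 cannot be told apart. The sources used here give neither ages nor treatments.

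In a sarcomere, thick filaments of myosin pull on thin filaments of actin, which are anchored at the Z-disc by alpha-actinin. Thick filaments are held in register at the M-band, and titin spans from Z-disc to M-band as a spring. Calcium reaches the filaments through troponin and tropomyosin, and a set of LIM-domain and ankyrin-repeat proteins links the Z-disc and the titin spring to signalling and to the nucleus.

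Each value below is a fold, the level in the first group divided by that in the second, with an adjusted p-value (false discovery rate) as the authors' deposited tables give them. No gene in the tables has a fold between 0.5 and 2. The adjusted p is the measure of error for each gene and rests on 6 rats against 6. Levels per rat and standard errors were not used here, depth per sample is unknown, and a gene that is not listed may have a smaller change, a larger error or too few reads. Without levels, the tissue could not be checked against its defining markers.

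In obese against lean hearts, 24 of the 40 sarcomere genes were lower, 1 was higher and 15 were not listed. The median fold of the 25 listed genes was 0.247, and their folds ran from 0.076 for Pdlim5 to 4.35 for Tpm2 in the authors' deposited table. Across the whole table, 46.6% of genes were lower, against 96% of the listed sarcomere genes. A listing in either direction was found for 22.8% of the protein-coding symbols of the RefSeq gene table, many of which a heart may not express, and for 62.5% of the sarcomere genes. In obese against WKY hearts the counts were again 24 lower, 1 higher and 15 not listed, with a median fold of 0.215, where 46.0% of all listed genes were lower and 22.9% of protein-coding symbols were listed. Both comparisons share the obese rats, so they are not independent of each other. The sarcomere genes listed in both number 24.

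Cell type markers moved with these genes. Of 12 cardiomyocyte markers outside the sarcomere, 8 were lower and 0 higher in obese against lean hearts, with a median fold of 0.259, and the same counts held against WKY with a median of 0.241. Markers of other cells were higher: 9 of 10 for endothelium (median fold 3.51), 9 of 10 for macrophages (3.32) and 5 of 10 for fibroblasts (4.199) in obese against lean hearts, with 0 lower in each. Smooth muscle and pericyte markers gave 5 higher and 2 lower of 10, skeletal muscle markers 4 higher and 0 lower of 12, and atrial markers 2 higher and 2 lower of 6. In a bulk sample, fewer cardiomyocytes and less RNA per cardiomyocyte cannot be told apart, and the part of these shifts in the sarcomere values was not tested.

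**Figure D1:**
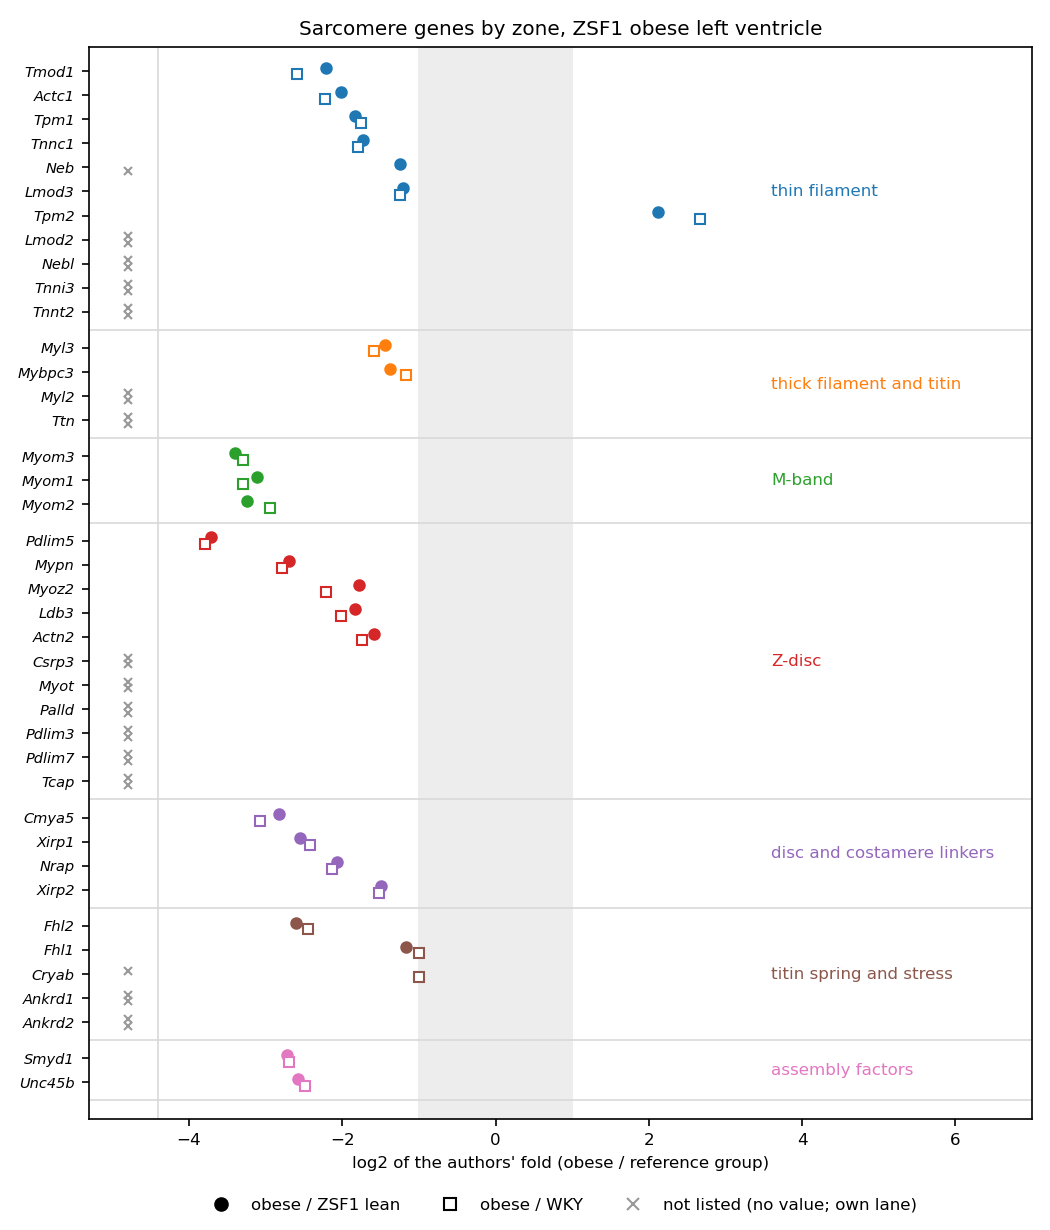
Log2 of the authors' fold (horizontal axis) for each of the 40 sarcomere genes, grouped by zone, in obese against ZSF1 lean (filled circles) and obese against WKY (open squares) hearts; the shaded band marks folds between 0.5 and 2, and crosses in the left lane mark genes with no value in that table. Against ZSF1 lean hearts the 3 M-band genes and Pdlim5 lie farthest to the left, and Tpm2 is the gene on the right.

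The letters upstream of 5 of these genes are shown first, because they differ in direction (Tpm1 fell and Tpm2 rose) or hold motifs of the muscle factors whose own mRNAs are described further on. The sequences are the 250 bases before the annotated start of transcription, 5′ to 3′ on the gene's strand, from RefSeq on the build GRCr8. Capitals mark matches to 6 motifs of muscle promoters, searched on both strands. The M-CAT element, read by TEAD factors, was searched as CATTCC. For the E-box of muscle genes the letters were CAGCTG. The site of GATA factors was searched as AGATAA. The MEF2 motif was searched as CTANNNNTAG. The core promoter box of that kind was searched as TATAAA, and the CArG box, which serum response factor reads, was searched by its usual consensus. The Fhl2 window lies at chr9:52954541-52954790, minus strand, and that of Myl3 at chr8:119616844-119617093, plus strand. The Myoz2 window lies at chr2:213852779-213853028, minus strand, that of Tpm1 at chr8:76543416-76543665, minus strand, and that of Tpm2 at chr5:62575727-62575976, minus strand.
Fhl2: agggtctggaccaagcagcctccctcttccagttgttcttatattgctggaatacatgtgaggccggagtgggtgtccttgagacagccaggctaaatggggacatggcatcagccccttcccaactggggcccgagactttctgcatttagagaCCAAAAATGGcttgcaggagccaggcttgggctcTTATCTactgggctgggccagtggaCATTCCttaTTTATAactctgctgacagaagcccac
Myl3: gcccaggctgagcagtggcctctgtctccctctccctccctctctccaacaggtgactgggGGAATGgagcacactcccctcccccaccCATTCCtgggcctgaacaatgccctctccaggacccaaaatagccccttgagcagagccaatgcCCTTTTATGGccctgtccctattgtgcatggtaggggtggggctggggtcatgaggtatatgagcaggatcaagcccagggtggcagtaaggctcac
Myoz2: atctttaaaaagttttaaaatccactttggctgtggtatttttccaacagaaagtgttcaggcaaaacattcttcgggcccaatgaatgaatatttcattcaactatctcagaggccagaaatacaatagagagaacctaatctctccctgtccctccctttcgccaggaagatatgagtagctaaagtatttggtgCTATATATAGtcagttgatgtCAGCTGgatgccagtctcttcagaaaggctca
Tpm1: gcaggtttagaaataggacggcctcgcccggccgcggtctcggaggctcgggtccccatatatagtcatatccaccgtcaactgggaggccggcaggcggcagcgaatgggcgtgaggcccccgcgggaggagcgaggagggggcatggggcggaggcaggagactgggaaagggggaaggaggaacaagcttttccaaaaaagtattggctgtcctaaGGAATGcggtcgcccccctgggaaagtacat
Tpm2: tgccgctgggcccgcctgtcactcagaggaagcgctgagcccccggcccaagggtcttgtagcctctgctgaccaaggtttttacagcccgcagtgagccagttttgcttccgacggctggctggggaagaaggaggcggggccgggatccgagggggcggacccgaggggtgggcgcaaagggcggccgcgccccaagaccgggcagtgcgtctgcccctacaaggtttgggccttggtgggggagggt

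The promoter table held 30 of the 40 sarcomere genes, 6 of them with several starts, and 21 of the 24 that were lower in obese against lean hearts. An M-CAT element was present upstream of 4 of these 21 (Fhl2, Myl3, Mypn and Tpm1), against 12.9% of all genes in the table. The CArG box was present for 4 of 21 (Fhl1, Fhl2, Ldb3 and Myl3), against 1.62% of all genes, and the MEF2 site for 3 of 21 (Mybpc3, Myoz2 and Xirp2), against 3.70%. The muscle E-box was found for 4 of 21 (Lmod3, Mybpc3, Myoz2 and Xirp1), against 12.9%, the GATA site for 2 of 21 (Fhl2 and Xirp1), against 10.9%, and the TATA box for 4 of 21, against 14.1%. No match was found in the Tpm2 window. Of the 8 unlisted sarcomere genes with a promoter, 2 held an M-CAT element and 2 an E-box (Palld and Tnnt2 in both cases), 2 a GATA site (Tnni3 and Tnnt2), 1 a CArG box (Nebl), 1 a MEF2 site (Ttn) and 1 a TATA box (Ankrd2). These are matches of letters, not bound sites, and the shares were not tested.

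Of the factors that read such sites, a few were looked up, and most of their mRNAs were also listed. No factor of the E-box was among them. In the authors' deposited table of obese against lean hearts, Tead1 stood at 0.054 (adjusted p = 9.15e-265), Mef2d at 0.264, Gata4 at 0.222, Srf at 0.403 and Myocd, a partner of serum response factor, at 0.262. Mef2a was listed in the authors' deposited table against WKY alone, at 0.438, and Mef2c in none. These genes were looked up after the sarcomere values had been seen.

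The thin filament holds 11 of the genes. In obese against lean hearts 6 fell, 1 rose and 4 were not listed. Actc1, the cardiac alpha-actin from which the filament is built (ENSRNOG00000008536), stood at 0.247 of the lean level (adjusted p = 2.88e-12) and at 0.213 of the WKY level (adjusted p = 8.87e-14) in the authors' deposited tables. Tnnc1, the calcium-binding subunit of troponin (ENSRNOG00000018943), stood at 0.301 and 0.287 in the same order in the authors' deposited tables. Its partners Tnnt2, which ties troponin to tropomyosin, and Tnni3, the inhibitory subunit, were listed in none of the 3 tables. Of the troponin complex of the heart, 1 subunit of 3 was therefore listed.

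Tropomyosin, the coiled coil that covers the myosin sites on actin, went both ways. Tpm1 (ENSRNOG00000018184), the main striated form of the rat heart, stood at 0.281 of the lean level (adjusted p = 5.19e-23) and 0.295 of the WKY level (adjusted p = 1.96e-19) in the authors' deposited tables. Tpm2 (ENSRNOG00000016731), the beta form, was 4.35 times the lean level (adjusted p = 1.32e-31) and 6.36 times the WKY level (adjusted p = 9.61e-49) in the authors' deposited tables. Tpm2 was the sole listed member of the 40 that was higher in obese hearts. As background, Tpm2 is also expressed in smooth muscle and in slow skeletal muscle. Of 10 smooth muscle and pericyte markers, 5 were higher and 2 lower in each comparison. In the authors' deposited tables Acta2 had folds of 3.51 and 5.86 and Myh11 of 2.93 and 6.28 against lean and WKY hearts. In the same order, Synpo2 stood at 0.114 and 0.106 and Rgs5 at 0.486 and 0.476. Synpo2 is also counted further on among genes of Z-disc proteins, and Lmod1, a marker that rose, among those of thin filament proteins. The value of Synpo2 therefore does not describe smooth muscle cells alone. Whether these cells supply the Tpm2 change was not tested.

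The ends and length of the thin filament are set by capping and ruler proteins. Tmod1, which caps the pointed end (ENSRNOG00000009761), fell to 0.215 of the lean level and 0.166 of the WKY level in the authors' deposited tables (adjusted p = 7.69e-20 and 2.1e-25). Lmod3, a leiomodin that nucleates and elongates actin at that end (ENSRNOG00000032443), stood at 0.432 and 0.423 in the authors' deposited tables. Neb, which encodes nebulin, a protein that runs along the thin filament and is abundant in skeletal muscle (ENSRNOG00000006783), had 0.423 of the lean level in the authors' deposited table, with an adjusted p of 1.72e-12, and was not listed against WKY. Nebl, the cardiac nebulette, was listed in none.

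Neb and Lmod2 were the 2 sarcomere genes in the table of lean against WKY hearts. For Neb, the authors' deposited table gave lean hearts 2.11 times the WKY level (adjusted p = 2.32e-08). Lmod2, the cardiac leiomodin (ENSRNOG00000045831), stood at 2.07 times the WKY level in the authors' deposited table, with an adjusted p of 4.8e-07, and was listed in neither obese comparison. Neb was thus listed as higher in lean than in both other groups, and obese and WKY hearts were not listed as different. Of all genes listed there, 63.9% were higher in lean hearts, and 0.881% of protein-coding symbols were listed, against 2 of 40 sarcomere genes.

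The lean against WKY table is on a scale of its own. Its largest adjusted p was 0.000347, against 0.0498 and 0.0499 in the obese tables. Of the 79 genes found in all 3 tables, its fold was nearer to 1 in 79 than the ratio of the 2 obese folds, with a median difference of 0.34 on the log2 scale, while the direction was the same in 79. A gene missing from this table has thus not failed the same threshold as one missing from an obese table, and folds were not chained through it.

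The thick filament and titin account for 4 genes, of which 2 fell in both obese comparisons. Mybpc3, cardiac myosin-binding protein C, a brake on myosin heads (ENSRNOG00000012307), stood at 0.384 of the lean level (adjusted p = 9.25e-21) and 0.444 of the WKY level (adjusted p = 3.99e-12) in the authors' deposited tables. Myl3, the ventricular essential light chain (ENSRNOG00000020955), stood at 0.369 (adjusted p = 7.04e-07) and 0.334 (adjusted p = 1.26e-07) in the authors' deposited tables. Myl2, the ventricular regulatory light chain, and Ttn, which encodes titin, were listed in none. The thick filament genes had folds closer to 1 than those of the M-band, where every gene was under 0.15.

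All 3 M-band genes fell. Myomesins crosslink myosin tails and titin in the middle of the sarcomere. Myom1 (ENSRNOG00000057701) stood at 0.116 of the lean level (adjusted p = 2.72e-55) and 0.102 of the WKY level (adjusted p = 8.04e-56) in the authors' deposited tables. Myom2, the form of fast and adult muscle (ENSRNOG00000011754), stood at 0.106 (adjusted p = 6.82e-42) and 0.13 (adjusted p = 9.94e-33) in the authors' deposited tables. For Myom3 (ENSRNOG00000032994) the authors' deposited tables gave 0.095 (adjusted p = 1.04e-41) and 0.102 (adjusted p = 6.26e-43). Folds of the 3 genes lay within 0.095 to 0.13 in both comparisons, which corresponds to levels 7.69 to 10.5 times lower in obese hearts.

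The Z-disc zone holds 11 genes, of which 5 fell and 6 were not listed in either obese comparison. Pdlim5 (ENSRNOG00000016419), a PDZ-LIM scaffold that binds alpha-actinin and protein kinases, had the lowest fold and the smallest adjusted p of all 40 genes. The authors' deposited tables gave it 0.076 of the lean level (adjusted p = 2.8e-224) and 0.072 of the WKY level (adjusted p = 3.03e-257). By adjusted p it was number 40 of 5700 genes against lean hearts and number 8 of 5709 against WKY. Ldb3 (ENSRNOG00000059166), also a PDZ-LIM protein, known as ZASP or Cypher, stood at 0.281 (adjusted p = 1.57e-40) and 0.248 in the authors' deposited tables. The related Pdlim3 and Pdlim7 were listed in none.

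Mypn, which encodes myopalladin, a binding partner of nebulin-type proteins, alpha-actinin and Ankrd1 (ENSRNOG00000000383), stood at 0.154 of the lean level (adjusted p = 9.47e-103) and 0.145 of the WKY level in the authors' deposited tables. Its paralog Palld was listed in none. Actn2, the alpha-actinin that crosslinks actin in the Z-disc (ENSRNOG00000017833), stood at 0.334 (adjusted p = 4.77e-10) and 0.299 (adjusted p = 3.87e-11) in the authors' deposited tables. Myoz2, a calsarcin that tethers calcineurin to the Z-disc (ENSRNOG00000014815), stood at 0.291 and 0.215 in the authors' deposited tables. Tcap, which binds titin at the Z-disc edge, Csrp3 and Myot (myotilin) were not listed.

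The 4 genes for proteins that link myofibrils to the intercalated disc or the costamere all fell. Xirp1, an actin-binding Xin repeat protein of the intercalated disc (ENSRNOG00000037085), stood at 0.171 of the lean level (adjusted p = 1.15e-96) and 0.187 of the WKY level in the authors' deposited tables. Xirp2 (ENSRNOG00000034258) stood at 0.354 and 0.349 in the authors' deposited tables. Cmya5, which encodes myospryn, a desmin and alpha-actinin partner (ENSRNOG00000023803), stood at 0.141 (adjusted p = 3.23e-86) and 0.119 (adjusted p = 1.76e-92) in the authors' deposited tables. Nrap, a nebulin-related protein of myofibril assembly and of the intercalated disc (ENSRNOG00000016714), stood at 0.238 and 0.227 in the authors' deposited tables.

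Proteins that sit on the titin spring and respond to stretch or stress gave a mixed listing. Fhl2, a LIM-domain protein that binds titin (ENSRNOG00000016866), fell to 0.164 of the lean level (adjusted p = 3.54e-45) and 0.184 of the WKY level (adjusted p = 3.25e-36) in the authors' deposited tables. Fhl1 (ENSRNOG00000000875) stood at 0.444 (adjusted p = 1.15e-11) and at 0.5 (adjusted p = 7.79e-08) in the authors' deposited tables. Cryab, a small heat shock protein that binds titin and desmin (ENSRNOG00000010524), was listed against WKY alone, with 0.5 in the authors' deposited table and an adjusted p of 0.00221. The values of Fhl1 and Cryab against WKY lie on the edge of the list, so the presence of Cryab in 1 table and its absence from the other do not show a difference between them. Ankrd1 and Ankrd2, stretch-responsive ankyrin-repeat proteins of the titin spring, were listed in none.

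Both factors that fold or modify myosin fell. Unc45b, the myosin chaperone of striated muscle (ENSRNOG00000009466), stood at 0.167 of the lean level (adjusted p = 8.17e-51) and 0.178 of the WKY level in the authors' deposited tables. Smyd1, a muscle methyltransferase required for sarcomere assembly (ENSRNOG00000006776), stood at 0.152 (adjusted p = 1.39e-91) and 0.155 (adjusted p = 1.68e-79) in the authors' deposited tables. Against lean hearts these folds are lower than those of the thin and thick filament genes of the list, which lay between 0.215 and 0.432 where they fell. Against WKY this did not hold for Tmod1, at 0.166. Outside the list, Cap2 stood at 0.127, Fhod3 at 0.18 and Myh6 at 0.187 against lean hearts in the authors' deposited table, so the contrast is limited to the listed members.

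**Figure D2:**
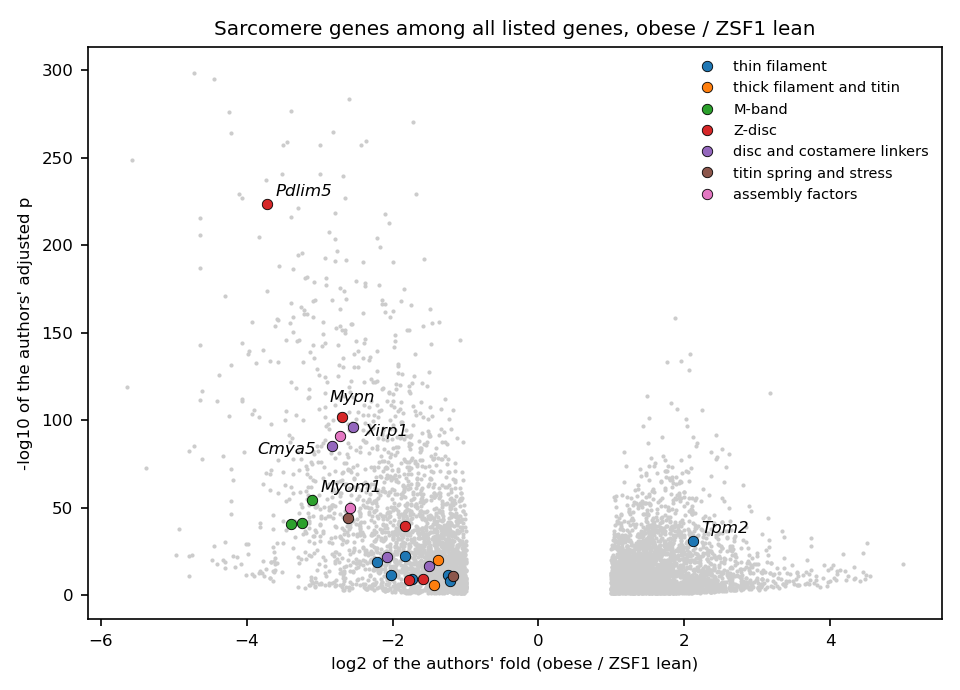
Log2 of the authors' fold (horizontal axis) and −log10 of the authors' adjusted p (vertical axis) for all listed genes in obese against ZSF1 lean hearts (grey; 17 genes with an adjusted p given as 0 are not drawn), with sarcomere genes coloured by zone. Pdlim5 stands highest of the coloured points, and Tpm2 is the point on the right.

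Genes with like folds had adjusted p-values far apart. Between folds of 0.28 and 0.34, the obese against lean table held 399 genes, with a median adjusted p of 2.19e-28 and an upper quartile of 2.35e-13. Of the 5 sarcomere genes in that range, Ldb3 was below this median and Tpm1, Actn2, Tnnc1 and Myoz2 were above it, the last 3 beyond the upper quartile as well. Actn2, Tnnc1 and Myoz2 stood at 4.77e-10, 6.95e-10 and 2.14e-09. An adjusted p depends on the read count of a gene and on the spread between rats, and neither is part of the tables.

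For the 24 genes listed in both obese tables, the ratio of the fold against WKY to the fold against lean estimates the level in lean relative to WKY hearts, as arithmetic with no test. Neb and Lmod2, the 2 members listed for lean against WKY, are not among the 24. It ran from 0.739 for Myoz2 to 1.46 for Tpm2, with a median of 0.967, and 24 of 24 lay within a factor of 1.5. These ratios are smaller than the 2-fold limit of the tables, and none of the 24 genes was listed for lean against WKY.

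Of 82 further genes outside the list, 30 were lower, 19 higher and 33 not listed in obese against lean hearts, and 31, 18 and 33 against WKY. The 82 comprise sarcomere genes, relatives expressed in other cells, and turnover factors. Those that rose include the non-muscle Actn1 and Actn4, the widely expressed Tmod3 and the smooth muscle Lmod1. These counts therefore do not describe the sarcomere alone. Skeletal and atrial forms of sarcomere proteins also rose, among them Tnnt3, Tnni2, Myl1 and Myl4. Genes of sarcomere proteins outside the list thus went both ways. Among 18 genes for myosins, light chains and their kinases, 3 fell and 6 rose in each comparison. The authors' deposited tables gave Myh6, the fast cardiac myosin heavy chain, 0.187 and 0.195, Mylk3, the cardiac myosin light chain kinase, 0.188 and 0.195, and Ppp1r12b, a subunit of myosin phosphatase, 0.145 and 0.156. Myh7, the slow cardiac myosin, was listed in none. Myh7b rose with folds of 3.32 and 2.30, and Mybph with 4.14 and 2.91, in the authors' deposited tables.

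Among 24 other genes of Z-disc and M-band proteins and their relatives, 11 fell in each comparison, and 5 rose against lean and 4 against WKY hearts. Synpo2l and Synpo2, actin-bundling proteins of the Z-disc, stood at 0.117 and 0.114 of the lean level in the authors' deposited table. A row with the symbol Myoz3 stood at 0.14 in the authors' deposited table, but its description there reads synaptopodin, a different gene, so which of the genes it measures is uncertain. Des, the desmin filament around the Z-disc, stood at 0.328 and 0.281, and Flnc, the muscle filamin, at 0.14 and 0.153 against lean and WKY hearts in the authors' deposited tables. Among 20 other genes of thin filament proteins and their relatives, 5 fell and 8 rose against lean hearts, and 6 fell and 7 rose against WKY. Those that fell include Fhod3, a cardiac formin that builds thin filaments, at 0.18, Cap2 at 0.127, Cfl2, the muscle cofilin, at 0.27 and Capza2 at 0.448 of the lean level in the authors' deposited table. Acta1, the skeletal actin, was listed against WKY alone, at 0.398 in the authors' deposited table, with an adjusted p of 0.00564.

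Genes of sarcomere turnover fell too. The list of 20 holds ubiquitin ligases, Kelch proteins, small heat shock proteins, chaperones, a calpain and a kinase. In obese against lean hearts 11 fell and 0 rose, with a median fold of 0.188, and 11 fell and 1 rose against WKY. In the authors' deposited tables, Fbxo32 (atrogin-1) stood at 0.125 and 0.131, Trim55 at 0.167 and 0.165, and Trim63 (MuRF1) at 0.346 and 0.312. Cdc37, a co-chaperone for kinases, stood at 0.39 and 0.46 in the authors' deposited tables, and Klhl31 at 0.163 and 0.128. Fbxo32, Trim55 and Trim63 are the ligases named here, which mark muscle proteins for degradation. Their mRNAs were lower beside those of the proteins that build the sarcomere.

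Relatives of the sarcomere genes were set beside them by family. The families were chosen after the values had been seen, with 14 genes of the list and 16 relatives in 8 families. In obese against lean hearts, 10 of the 14 fell and 1 rose, while 2 of the 16 relatives (Tmod4 and the uncertain Myoz3) fell and 8 rose, and the counts against WKY were the same. Of all genes in the obese against lean table, 3045 of 5700 were higher, so a higher relative is also the commoner direction among listed genes, and nothing particular to the families is read from these counts. For alpha-actinin, Actn2 fell as given above, whereas the non-muscle forms Actn1 and Actn4 rose with folds of 4.08 and 2.93 against lean hearts in the authors' deposited table. For tropomyosin, Tpm3 and Tpm4 had folds of 2.83 and 2.35 against lean hearts in the authors' deposited table.

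Tropomodulins and leiomodins held genes of both directions. Tmod3, the widely expressed form, rose with folds of 2.07 and 2.11, while Tmod4, of skeletal muscle, fell to 0.316 and 0.179 in the authors' deposited tables. Lmod1, the smooth muscle leiomodin, rose with folds of 2.58 and 4.79 in the authors' deposited tables, where Lmod3 fell. Myoz1 rose with folds of 3.29 and 5.24 in the authors' deposited tables, while Myoz2 fell, as did the row with the symbol Myoz3, whose description names another gene. Unc45a, the general form of the chaperone, was listed against WKY alone, where the authors' deposited table gave 2.57. Pdlim2 rose as well, with a fold against lean hearts of 2.75 in the authors' deposited table. Outside these families, Fhod1 and Filip1l had folds of 2.87 and 2.03 against lean hearts in the authors' deposited table. Where relatives share sequence, as actins and tropomyosins do, reads may also have been divided between them, so their values are uncertain.

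**Figure D3:**
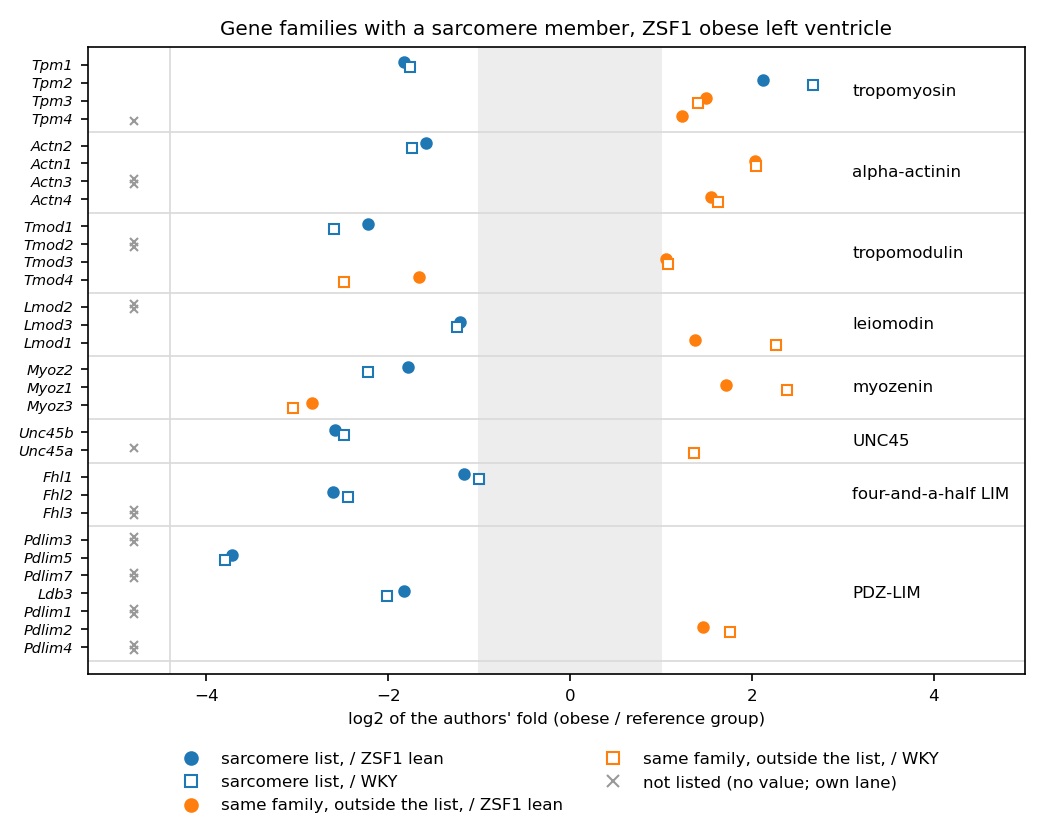
Log2 of the authors' fold (horizontal axis) for 8 gene families, with genes of the sarcomere list in blue and their relatives in orange, against ZSF1 lean (filled circles) and WKY (open squares); crosses in the left lane have no value. Of the 16 relatives, 8 lie to the right of the shaded band, which marks folds between 0.5 and 2, while 10 of the 14 sarcomere genes lie to its left.

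Gene span was set beside the changes, as lower genes of the whole table were longer: their median span was 33.0 kb, against 20.2 kb for the higher genes, on the RefSeq annotation of GRCr8. In obese against lean hearts, the 10% of listed genes with the longest spans were lower in 61.8% of cases and the 10% with the shortest in 26.9%. Listed sarcomere genes had a median span of 59.5 kb and the 15 unlisted ones of 15.4 kb. Ttn, Nebl and Palld, at 272.5, 352 and 393 kb, were not listed, and of the 5 listed genes shorter than 10 kb, Actc1, Myl3, Tnnc1 and Xirp1 were lower and Tpm2 was higher. Without Neb and Pdlim5, the 2 listed sarcomere genes among the longest 10%, the median log2 fold was −2.02, as with them. Neb lies above that median and Pdlim5 below it, so leaving out both could not move it, and nothing about span is read from it. The part of gene span in the direction of these genes was not tested further.

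**Figure D4:**
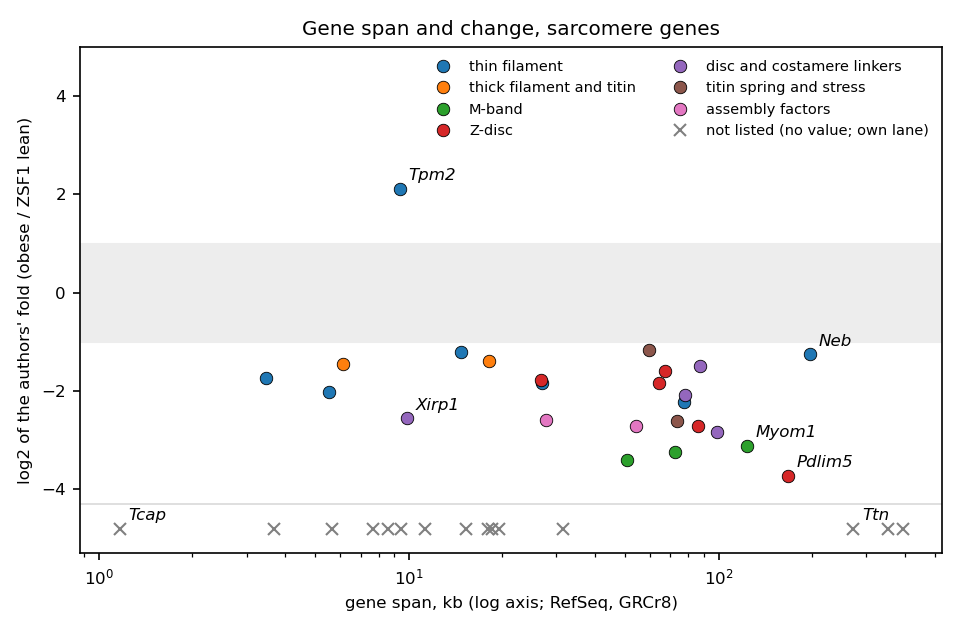
Gene span in kb (horizontal log axis) and log2 of the authors' fold in obese against ZSF1 lean hearts (vertical axis) for the sarcomere genes, coloured by zone; crosses in the lower lane are the 15 genes with no value. Lower genes range from Tnnc1 at 3.46 kb to Neb at 198 kb.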

How the data were processed

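Left ventricular RNA of 18 rats (6 per group) was measured. Per the labels' protocols, a Qiagen kit gave total RNA, and a TrueSeq stranded mRNA kit selected polyadenylated RNA for sequencing. Per the submitters' processing notes, HISAT2 2.1.0, HTSeq 0.11.2, DESeq2 1.22.2 and the build Rnor_6.0 were used. The sources used here do not state their settings, strand included, or how multiply mapped reads were handled. Replicate rats share no numbers between groups. The sample titles name no library batch, so whether a batch differed between the groups is unknown.

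Per the file headers, the authors deposited a linear ratio (fold) and an adjusted p-value (FDR) for each listed gene. No test was run on them here. Log2 folds, counts and medians were computed with Python 3.11.15 and pandas 2.3.3, and the counting was tested on simulated data. Rows were matched by exact symbol; for Myoz3 the deposited description disagreed with the symbol, and each listed sarcomere gene had 1 row per table. The design planned a count-based test where counts were given, and the tables hold none. Alternatives were stricter FDR and fold thresholds, matching by synonyms, counting once per symbol, the mean, and leaving out long genes. The share of listed genes stands in for a count over all tested genes, which is not part of the tables.

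The sarcomere genes, the further gene lists, the marker lists and the naming rule were chosen with earlier results of these data known. All 40 genes are named, with up to 4 further genes per list, comparison and direction by adjusted p, and Myh6, Myh7, Acta1, Des and Flnc whatever their values. Some results that this rule would name are not reported here. Families and transcription factors were added after values had been seen. Promoters (250 bases before the start) and gene spans come from RefSeq on GRCr8, a different build from that of the tables, matched by symbol. The promoter table holds 33469 windows for 27457 genes, and a gene counts once if any of its windows holds the motif.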

Additional observations from a re-analysis of the deposited data

How the results depend on the processing

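Under an FDR below 0.01 or 0.001, the 25 sarcomere genes listed against lean hearts and, against WKY, 25 and 24 of 25 remained, Cryab being the one lost. Of all genes listed against lean and WKY hearts, 47.7% and 47.28% were lower at 0.01, and 49.07% and 48.75% at 0.001. With the largest FDR of the lean table as threshold, chosen after seeing the data, 24 and 23 genes stayed lower, beside 49.72% and 49.55% of all genes. A fold limit of 3 left 17 and 18 lower genes, and a limit of 4 left 13 against lean and 15 against WKY hearts, since several folds lie between 0.25 and 0.5. Of all genes left at a limit of 3, 48.59% against lean and 47.55% against WKY hearts were lower, and at a limit of 4, 52.78% and 51.81%. Tpm2 passed each of these limits. For lean against WKY, fold limits of 3 and 4 left 0 of the 2 higher genes, and 57 and 24 of all 233 listed genes. Synonyms and counting once per symbol changed no count. The median log2 fold, −2.02 against lean and −2.22 against WKY hearts, lay at −2.01 and −2.02 as a mean, and at −2.04 and −2.22 without Tpm2, and at −2.02 and −2.18 without the longest genes. Against lean hearts, leaving out the longest genes could not move the median, since they lie on either side of it. No paired analysis was possible because the groups share no replicate numbers and the tables hold no values per rat. For that reason rats could not be left out in turn, and filters on low counts could not be tried.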

Other observations

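Genes for skeletal forms of sarcomere proteins went both ways in obese hearts, while the atrial light chains Myl4 and Myl7 rose. Of 12 skeletal muscle markers 4 rose and 0 fell against lean hearts. Of 6 atrial markers 2 rose, these light chains, and 2 fell in each obese comparison. The atrial markers that fell are not on the sarcomere gene lists used here. Tnnt3 and Tnni2, the fast skeletal troponins, had folds of 8.88 and 5.21 against lean hearts and of 6.50 and 5.66 against WKY in the authors' deposited tables. Myl1, a fast skeletal light chain, had folds of 8.0 and 5.46 in the authors' deposited tables, with adjusted p-values of 1.15e-10 and 0.000155. Tnnt1, the slow skeletal troponin T, had folds of 2.04 and 2.28 in the authors' deposited tables. Myh1, Myh2 and Myh4, the adult skeletal myosins, were listed in neither obese comparison, nor were Tnnc2, Actn3 and Pvalb. The skeletal Tmod4 was lower, at 0.316 and 0.179, and Acta1 was lower against WKY alone, at 0.398, in the authors' deposited tables.

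Of the atrial light chains, Myl4 had folds of 6.82 and 5.62 and Myl7 of 3.34 and 14.1 against lean and WKY hearts in the authors' deposited tables. Nppa, a further atrial marker, was listed in none, and Sln, also an atrial gene, was lower in the authors' deposited table against lean hearts, at 0.285. Dkk3 was lower in both of the authors' deposited tables, at 0.438 and 0.42, and Stard10 was lower in that against WKY, at 0.376. Levels were not part of the tables, so the amount of these mRNAs relative to the ventricular forms is unknown.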
